A study of Homo sapiens with 8 samples.

Results

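The genes described here were 10 members of the tumour necrosis factor (TNF) family, namely the death receptors FAS, TNFRSF10A (DR4), TNFRSF10B (DR5), TNFRSF1A (TNFR1) and TNFRSF21 (DR6), the decoy receptors TNFRSF10C (DcR1) and TNFRSF10D (DcR2), the receptor TNFRSF12A (Fn14), and the ligands TNFSF10 (TRAIL) and TNFSF9 (4-1BB ligand). They were chosen by symbol, as FAS, the TRAIL receptors and family members with a known place in the response to radiation, and all 10 had a row among the 58233 genes of the counts table. The counts came from MCF10A, an epithelial line from human breast that does not form tumours, here carrying the H-Ras oncogene in every group and grown with horse serum, EGF, hydrocortisone, cholera toxin and insulin. Control cells (genotype "WT (control)") and RBM6-KO1 cells, 1 clone in which the splicing factor RBM6 was targeted with CRISPR-Cas9 (genotype "RBM6-KO"), were left untreated or received 5 Gy of X-rays (IR) and were collected 12 h later. Each of the 4 groups had 2 replicates, labelled A and B, so there were 8 libraries. All p-values below rest on the spread between 2 libraries of a group, and what separates KO1 from control cells also includes whatever separates 1 clone from its parental line.

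Death receptors carry a death domain on their cytoplasmic side. When FAS ligand or TRAIL binds FAS, DR4 or DR5, that domain recruits the adaptor FADD and caspase-8, and the caspase cascade that follows can end in apoptosis, whereas TNFR1 mainly starts NF-kB signalling and leads to death when that branch fails. The decoys DcR1 and DcR2 bind TRAIL without an intact death domain. FAS and TNFRSF10B are known targets of the tumour suppressor p53, which is switched on by DNA breaks. TNFSF9 binds the receptor 4-1BB on activated T cells and NK cells and stimulates them.

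The 8 libraries held 15355281 to 29832009 counts on genes, of which replicate B of irradiated control cells was the deepest, and a count of 3 corresponded to 0.0966 to 0.204 normalized CPM (counts scaled to library size). CDKN1A, MDM2 and GDF15, targets of p53 that served as a check of the irradiation, rose in control cells by 1.80, 1.41 and 2.62 on the log2 scale and in KO1 cells by 2.02, 1.23 and 2.93. RBM6 mRNA, the target of the knockout, differed by -0.14 between untreated KO1 and control cells (edgeR adjusted p = 0.712) and by -0.40 after IR (edgeR adjusted p = 0.535), so the counts do not show the deletion. All 8 epithelial markers were present in every library, from KRT5 at 1057 to 1623 CPM down to CDH1 at 12.2 to 49.5 and TP63 at 15.8 to 46.8 CPM, 5 of 7 immune markers had at most 3 counts in any library, and the hormone receptors ESR1 and PGR summed to at most 0.518 CPM. CD14, at 65 to 373 counts, was lower in untreated KO1 cells (-1.81, edgeR adjusted p = 0.000373), and the fibroblast-associated gene DCN, at 1132 to 4174 counts, was higher (0.91, edgeR adjusted p = 0.00147). Of the other fibroblast and endothelial markers, PDGFRA had at most 9 counts in any library, VWF and CDH5 at most 4, PDGFRB 53 and PECAM1 93. PDGFRB averaged 0.18 CPM in untreated and 1.40 in irradiated control cells, and 0.34 and 0.88 in KO1 cells. The immune marker ITGAM, at 0 to 23 counts, averaged 0.054 and 0.888 CPM in control and 0.056 and 0.199 in KO1 cells. After IR DCN averaged 86.3 CPM in control and 186 in KO1 cells, and PECAM1 1.37 and 3.94. Among the epithelial markers, KRT14 was higher in untreated KO1 cells (0.78, edgeR adjusted p = 0.0156) and KRT18 lower (-0.63, edgeR adjusted p = 0.0175), and after IR CDH1 (1.18) and EGFR (0.91) rose in control cells and KRT14 fell by 0.90 in control and 0.96 in KO1 cells. These markers move with genotype or IR, and their part in the results below was not tested. In bulk RNA, fewer cells with an mRNA and less of it per cell cannot be told apart.

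RefSeq start regions (GRCh38.p14, from 250 bases before a start to 30 after it) were available for 5 of the 10 genes, FAS, TNFSF9, TNFSF10, TNFRSF1A and TNFRSF21, and were searched on both strands for the p53 half-site, the NF-kB site and the box TATAAA. The 3 windows that held a match are shown because they belong to the gene that passed 2-fold after IR in control cells and to both ligands, with the matches in capitals.
FAS, chr10:88991181-88991460, plus strand: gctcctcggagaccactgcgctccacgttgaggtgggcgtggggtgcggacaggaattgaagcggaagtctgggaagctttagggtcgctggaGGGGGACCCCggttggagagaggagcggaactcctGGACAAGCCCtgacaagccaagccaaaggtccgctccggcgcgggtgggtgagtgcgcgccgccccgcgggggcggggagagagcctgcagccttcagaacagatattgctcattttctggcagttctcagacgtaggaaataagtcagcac
TNFSF9, chr19:6530776-6531055, plus strand: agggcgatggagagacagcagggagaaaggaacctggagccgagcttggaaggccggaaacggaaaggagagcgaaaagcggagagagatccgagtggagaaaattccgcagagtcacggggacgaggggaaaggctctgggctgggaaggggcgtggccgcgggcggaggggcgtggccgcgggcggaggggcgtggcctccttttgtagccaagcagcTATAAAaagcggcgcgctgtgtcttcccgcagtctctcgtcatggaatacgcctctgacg
TNFSF10, chr3:172523401-172523680, minus strand: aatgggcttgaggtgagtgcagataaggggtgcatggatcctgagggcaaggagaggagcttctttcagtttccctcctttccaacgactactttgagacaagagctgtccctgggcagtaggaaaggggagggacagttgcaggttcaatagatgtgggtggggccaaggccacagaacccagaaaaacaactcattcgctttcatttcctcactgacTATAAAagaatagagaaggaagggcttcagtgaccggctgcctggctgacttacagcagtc
In the FAS window the capitals mark an NF-kB site at chr10:88991274-88991283 and a p53 half-site at chr10:88991309-88991318, which do not overlap. Both lie in intron 1 of the canonical FAS transcript, 157 and 122 bases before the RefSeq start of that window, and the other 2 FAS windows held no match. In the TNFSF9 and TNFSF10 windows the capitals mark TATAAA, which begins 30 bases before the start of TNFSF9 (chr19:6530996-6531001) and 31 bases before that of TNFSF10 (chr3:172523456-172523461), upstream of the canonical transcript in both. TNFRSF1A and TNFRSF21 held none of the 3. Of 35116 windows genome-wide, 6.15% held the half-site, 5.6% the NF-kB site and 11.2% TATAAA, and each match is one of letters only.

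The members covered a wide range of mRNA levels in untreated control cells (the plot of levels by library). Per kb of canonical transcript, the level of TNFRSF12A was the highest at 244 ± 9.42 CPM per kb (SD, n = 2), followed by TNFRSF1A at 127 ± 3.91, TNFRSF10B at 51.9 ± 3.87, TNFRSF10D at 27.6 ± 1.10, TNFSF9 at 21.8 ± 5.6, TNFRSF10A at 11.1 ± 3.14, FAS at 5.63 ± 0.635, TNFRSF21 at 2.85 ± 0.0998, TNFRSF10C at 1.88 ± 0.208 and TNFSF10 at 0.844 ± 0.102. In that group no neighbours in this order had overlapping values. In untreated KO1 cells TNFRSF10B and TNFRSF10D, TNFSF9 and TNFRSF10A, and TNFRSF21 and TNFRSF10C overlapped as neighbours, and after IR so did TNFRSF10A and FAS in both genotypes and TNFRSF10B and TNFRSF10D in KO1 cells. FAS stood 9th rather than 7th in untreated control cells when length was taken as the union of all annotated exons, because that union is 29313 bases long for FAS against 3696 for its canonical transcript. A ligand for FAS was nearly absent, with at most 2 counts of FASLG in any library, and TNF itself had at most 4.

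**Figure D1:**
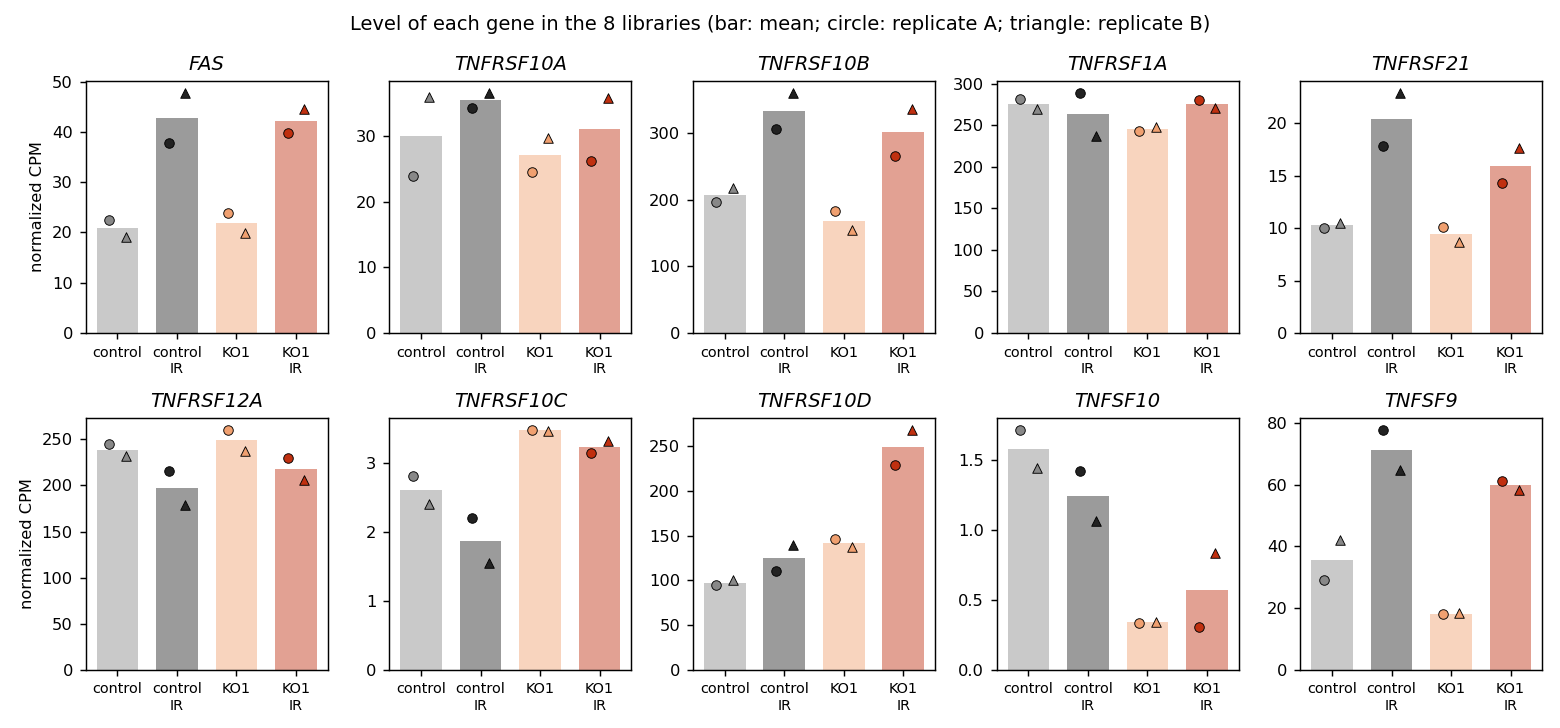
Normalized CPM (vertical axes, linear, starting at 0) of the 10 genes in the 8 libraries, with bars for the mean of 2 libraries, circles for replicate A and triangles for replicate B, in untreated (light) and irradiated (dark) control (grey) and KO1 (orange to red) cells. FAS, TNFRSF10B, TNFRSF21 and TNFSF9 were higher in both irradiated libraries than in both untreated ones of either genotype, and TNFRSF10D was highest in irradiated KO1 cells.

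The first question was which of these genes responded to IR in control cells. FAS, TNFRSF10B, TNFRSF21 and TNFSF9 rose, 4 of 10 members at an adjusted p under 0.05, where 2.81% of the 15412 genes tested rose and 2.91% fell on that criterion. Only FAS also passed 2-fold, the call used below, where 1.68% of all genes were called higher and 1.91% lower. No member fell. The median log2 fold change of the 10 members was 0.29 against 0.02 for all genes tested, with 6 members above 0 and 4 below. In KO1 cells FAS, TNFRSF10B, TNFRSF10D and TNFSF9 rose, 4 of the 9 members tested, beside 2.44% of 15598 genes higher and 3.23% lower by adjusted p, and TNFSF9 was the 1 member called at 2-fold, beside 1.13% of genes called higher and 1.97% lower. The median of the 9 was 0.74, and of all genes -0.01. TNFSF10 was not tested in KO1 cells for its low counts. In edgeR an unadjusted p under 0.05 was given to 40% of the members in control cells, beside 25.4% of all genes. In KO1 cells it was 55.6% beside 29.6%. The members were chosen for a known place in the response to radiation and with earlier results of these data known. Their shares here and below therefore carry no test.

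Among the death receptors, FAS (ENSG00000026103, chromosome 10, 88953813 to 89029605) had 22.5 and 19.2 CPM in untreated control libraries and 37.7 and 47.7 after IR, and in KO1 cells 23.8 and 19.8 before and 39.8 and 44.6 after. Both irradiated libraries stood above both untreated ones in each genotype, and the values of the genotypes overlapped. In control cells FAS rose 2.04-fold, or 1.03 on the log2 scale with a standard error of 0.21 (adjusted p = 0.0202, from the quasi-likelihood test of edgeR adjusted by Benjamini-Hochberg, as for every edgeR value given here). In KO1 cells it rose by 0.93 (standard error 0.18, edgeR adjusted p = 0.0262), short of 2-fold, and did not pass without untreated replicate B (0.114). The 2-fold call in control cells was narrow. It was lost without untreated replicate A (1.13, edgeR adjusted p = 0.0591), without untreated replicate B (0.92, 0.193), without irradiated replicate B (0.85, 0.00506) and with upper-quartile scaling (0.98, 0.00786). The adjusted p stayed between 0.000159 and 0.0225 in the 7 alternatives that kept all libraries. FAS exons share 166 bases with STAMBPL1 on the same strand and 387 bases with ACTA2 on the opposite strand. Another annotated gene on the opposite strand, not a row of the table, shares 1899 bases (6.5%). Strandedness of the counting is not given in the sources used here.

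TNFRSF10B (ENSG00000120889, chromosome 8, 23020133 to 23069031), the more abundant of the TRAIL death receptors, had 197 and 218 CPM in untreated and 307 and 360 CPM in irradiated control cells, and 182 and 155 before and 266 and 336 after IR in KO1 cells. Irradiated libraries were again the higher ones in both genotypes. It rose by 0.68 in control cells (standard error 0.16, edgeR adjusted p = 0.0359) and by 0.82 in KO1 cells (standard error 0.17, edgeR adjusted p = 0.0308), below 2-fold in each. The adjusted p rose over 0.05 without untreated replicate A (0.33) or B (0.239) in control cells and without untreated (0.11) or irradiated (0.12) replicate B in KO1 cells. Its exons share 377 bases with RHOBTB2 on the opposite strand. TNFRSF10A (ENSG00000104689, chromosome 8, 23190452 to 23225102), the other receptor through which TRAIL can kill, had 23.9 and 35.9 CPM before and 34.3 and 36.5 after IR in control cells and 24.5 and 29.7 before and 26.2 and 35.8 after in KO1 cells. Irradiated and untreated libraries overlapped within each genotype, and its IR changes of 0.23 (95% interval -0.26 to 0.72) and 0.18 (-0.28 to 0.64) did not pass. The interval in control cells leaves out a 2-fold rise but holds the 0.68 of TNFRSF10B, while the interval in KO1 cells ends below its 0.82. A rise was thus detected for TNFRSF10B and not for TNFRSF10A, but the difference between the 2 genes was not itself tested. TNFRSF10A also overlaps antisense RNAs, TNFRSF10A-AS1 in 7.7% and TNFRSF10A-DT in 9.1% of its exon bases.

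TNFRSF21 (ENSG00000146072, chromosome 6, 47231532 to 47309905), a death-domain receptor of lower level, had 10.0 and 10.5 CPM in untreated and 17.9 and 22.9 CPM in irradiated control cells. In KO1 cells it had 10.1 and 8.71 before and 14.3 and 17.6 after IR. The irradiated libraries did not overlap with the untreated ones in either genotype. It rose by 0.98 in control cells (standard error 0.23, edgeR adjusted p = 0.0338), and in KO1 cells the change of 0.74 (standard error 0.21, edgeR adjusted p = 0.064) missed the threshold. The control result did not pass without untreated replicate A (0.183) or B (0.18). TNFRSF1A (ENSG00000067182, chromosome 12, 6328757 to 6342114), the receptor for TNF, stood between 237 and 289 CPM in all 8 libraries. Its IR changes were -0.08 in control cells (95% interval -0.43 to 0.28) and 0.15 in KO1 cells (-0.16 to 0.46), so a 2-fold change lay outside both intervals. TNFRSF12A (ENSG00000006327, chromosome 16, 3018445 to 3022383), the receptor for TWEAK, which lacks a death domain, ranged from 178 to 245 CPM in control and from 206 to 261 CPM in KO1 libraries. It was lower in both irradiated libraries of each genotype, by -0.28 (edgeR adjusted p = 0.296) and -0.21 (edgeR adjusted p = 0.367), which did not pass.

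Of the decoys, TNFRSF10D (ENSG00000173530, chromosome 8, 23135588 to 23164027), whose product has a truncated death domain, had 94.8 and 100 CPM in untreated and 111 and 140 CPM in irradiated control cells, and 147 and 137 before and 229 and 269 after IR in KO1 cells. The 4 groups did not overlap, except that irradiated control replicate B reached the range of untreated KO1 cells. It rose by 0.79 in KO1 cells (standard error 0.15, edgeR adjusted p = 0.0262), and in control cells its 0.35 (standard error 0.17, edgeR adjusted p = 0.219) did not pass, although it did without irradiated replicate A (0.53, edgeR adjusted p = 0.00596) and was smallest, 0.17, without irradiated replicate B. Without 1 library the KO1 result lost significance for untreated replicate B (edgeR adjusted p = 0.0883) and irradiated replicate B (0.0917). TNFRSF10C (ENSG00000173535, chromosome 8, 23102921 to 23117445), anchored in the membrane by a lipid and without a death domain, had only 34 to 68 counts a library, that is 2.82 and 2.41 CPM in untreated and 2.20 and 1.55 in irradiated control cells and 3.49, 3.47, 3.15 and 3.33 CPM in the untreated and irradiated KO1 libraries. Its IR changes were -0.52 (95% interval -1.29 to 0.25) and -0.12 (-0.74 to 0.50), of which the first does not leave out a 2-fold fall. Another annotated gene on the same strand, not a row of the table, shares 16.9% of the exon bases of TNFRSF10C.

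Of the ligands, TNFSF9 (ENSG00000125657, chromosome 19, 6531026 to 6535924) responded in both genotypes. It had 29.2 and 42.2 CPM in untreated and 77.8 and 64.8 CPM in irradiated control cells, and 18.0 and 18.3 CPM before and 61.3 and 58.4 CPM after IR in KO1 cells. The irradiated libraries of both genotypes lay above all 4 untreated ones, and untreated KO1 cells were lowest. The rise was 3.26-fold in KO1 cells, or 1.71 in log2 (standard error 0.16, edgeR adjusted p = 0.0022), which ranked 9th by p among the 15598 genes tested, and it passed 2-fold without any 1 library (1.69 to 1.75). In control cells it was 1.98-fold, 0.99 (standard error 0.21, edgeR adjusted p = 0.0236), just short of a call, and ranged from 0.73 without untreated replicate A (edgeR adjusted p = 0.225) to 1.28 without untreated replicate B. TNFSF10 (ENSG00000121858, chromosome 3, 172505508 to 172523475), the ligand of the 4 TRAIL receptors, was the least abundant member. It had 28 and 27 counts in untreated and 22 and 33 counts in irradiated control libraries, and 6 and 5 before and 6 and 17 after IR in KO1 libraries, which is 1.72 and 1.45, 1.42 and 1.06, 0.338 and 0.340, and 0.310 and 0.833 CPM. Its IR change in control cells was -0.38 (95% interval -1.26 to 0.49), which excludes neither a 2-fold fall nor no change.

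**Figure D2:**
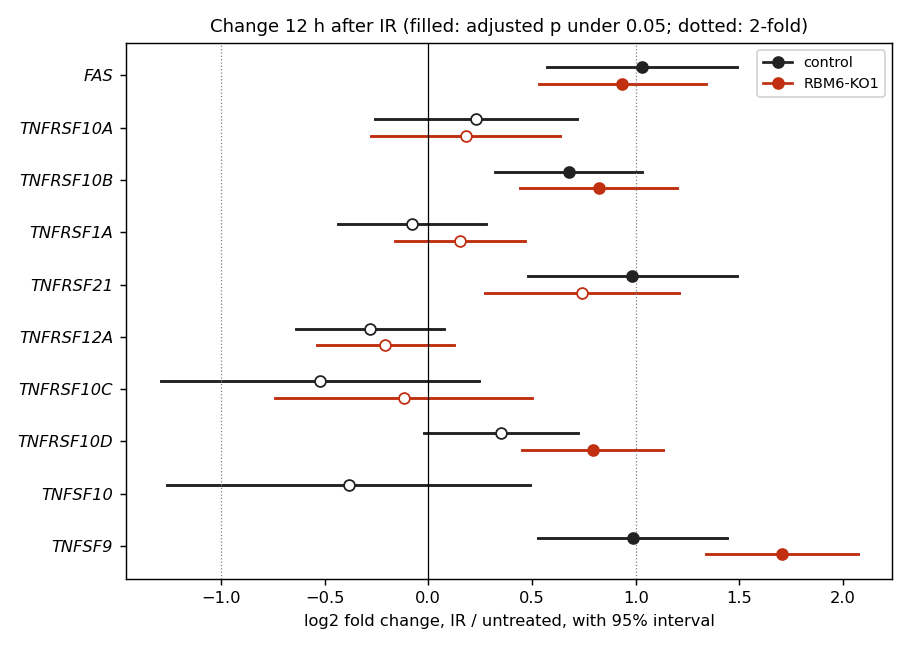
Log2 fold change of irradiated against untreated cells (horizontal axis) for each of the 10 genes in control (black) and KO1 (red) cells, as points with 95% intervals from edgeR, filled where the adjusted p was under 0.05, with dotted lines at 2-fold. FAS, TNFRSF10B and TNFSF9 were filled in both genotypes, TNFRSF21 in control and TNFRSF10D in KO1 cells, and TNFSF10 has no point for KO1 cells because it was not tested there.

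The IR responses of the genotypes were compared through an interaction term over all 8 libraries. No member passed, and none of the 16549 genes tested did (0% called). An unadjusted p under 0.05 was given to 306 genes (1.85%) in edgeR and to 164 in DESeq2, neither calling a gene. TNFSF9 had the one unadjusted p under 0.05 among the members. Its rise was 0.73 larger in KO1 cells on the log2 scale (95% interval 0.14 to 1.32, edgeR unadjusted p = 0.0199, adjusted p = 1), and the difference ranged from 0.43 without untreated control replicate B to 0.97 without untreated control replicate A. For TNFRSF10D the difference was 0.45 (95% interval -0.03 to 0.92, edgeR unadjusted p = 0.0615, adjusted p = 1), so its response in KO1 but not in control cells was not shown to differ between them. For FAS the difference was -0.09 (-0.67 to 0.49), for TNFRSF10B 0.15 (-0.35 to 0.65) and for TNFRSF21 -0.24 (-0.88 to 0.41). Any larger than 2-fold lay outside these 3 intervals. The interval of TNFSF10, -0.57 to 2.81, was too wide to be read.

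The second question was which members differed between RBM6-KO1 and control cells. Untreated, TNFSF10 and TNFSF9 were lower and TNFRSF10D was higher in KO1 cells, 3 of 10 members by adjusted p, beside 2.38% of 15556 genes higher and 3.73% lower. TNFSF10 alone was called at 2-fold, beside 1.16% of genes called higher and 1.97% lower, and the members' median was -0.15 against 0.01 for all genes. After IR no member passed in the fit used here, which did not pair replicates by letter. Over all 15587 genes, 0.353% were called higher and 0.815% lower at 2-fold, and 0.372% and 0.84% by adjusted p alone. 2 members, TNFRSF10C and TNFRSF10D, had an unadjusted p under 0.05 in edgeR after IR (20% of members, beside 11.1% of all genes). DESeq2 called 1 of the 10, TNFRSF10D. An edgeR fit with a replicate block, which pairs by letter, also called 1 member, beside 189 genes higher and 352 lower. These comparisons share libraries with those of IR above, so they are not independent of them.

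Without IR, TNFSF9 averaged 35.7 ± 9.15 CPM in the control and 18.1 ± 0.242 CPM in the KO1 libraries (SD, n = 2 each), which differ by -0.99 in log2 (standard error 0.20, edgeR adjusted p = 0.00459). The control replicates differed from each other more than the KO1 ones, and without control replicate B the change was -0.69 (edgeR adjusted p = 0.12), against -1.23 without control replicate A. After IR the levels were 71.3 ± 9.16 and 59.8 ± 2.06 CPM, and the change of -0.24 (95% interval -0.63 to 0.15, edgeR adjusted p = 0.708) did not pass. TNFSF10 stood at 1.58 ± 0.191 CPM in untreated control cells and at 0.339 ± 0.00168 in untreated KO1 cells, 4.62-fold lower, or -2.21 in log2 (standard error 0.54, edgeR adjusted p = 0.0176). That call rests on 5 and 6 counts in the KO1 libraries. It was lost in DESeq2 (adjusted p = 0.153) and in the edgeR fit of all 8 libraries (0.0643), and the adjusted p was 0.0534 to 0.12 whichever of the 4 libraries was left out, while the change stayed between -2.32 and -2.09. After IR the change was -1.07 (95% interval -2.33 to 0.19, edgeR adjusted p = 0.549), -1.96 without KO1 replicate B, which held 17 counts, and -0.55 without KO1 replicate A.

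TNFRSF10D had 97.5 ± 3.87 CPM in untreated control cells and 142 ± 6.61 in untreated KO1 cells, a change of 0.53 (standard error 0.14, edgeR adjusted p = 0.0301) that lost significance without control replicate A (0.272) or B (0.256). After IR it had 125 ± 20.7 CPM in control and 249 ± 27.8 in KO1 cells, with both KO1 libraries above both control ones. The adjusted p of that log2 change of 0.997 (95% interval 0.57 to 1.42) was 0.0581 from edgeR, just over the threshold, and it was under 0.05 in 6 of 7 alternatives that kept all libraries, where it ranged from 5.03e-06 to 0.0835. With 1 library left out the change ranged from 0.83 to 1.17. TNFRSF10C, the other decoy, was also higher in both KO1 libraries before and after IR, by 0.40 (95% interval -0.26 to 1.06, edgeR adjusted p = 0.573) and 0.83 (0.08 to 1.57, edgeR adjusted p = 0.385), without passing. TNFRSF10B was lower in both untreated KO1 libraries, by -0.31 (edgeR adjusted p = 0.26), and overlapped after IR. FAS differed by 0.06 before IR (95% interval -0.35 to 0.47) and by -0.01 after (-0.47 to 0.44), and the intervals of TNFRSF10A, TNFRSF1A, TNFRSF12A and TNFRSF21 likewise held 0 and left out a 2-fold difference in both comparisons.

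**Figure D3:**
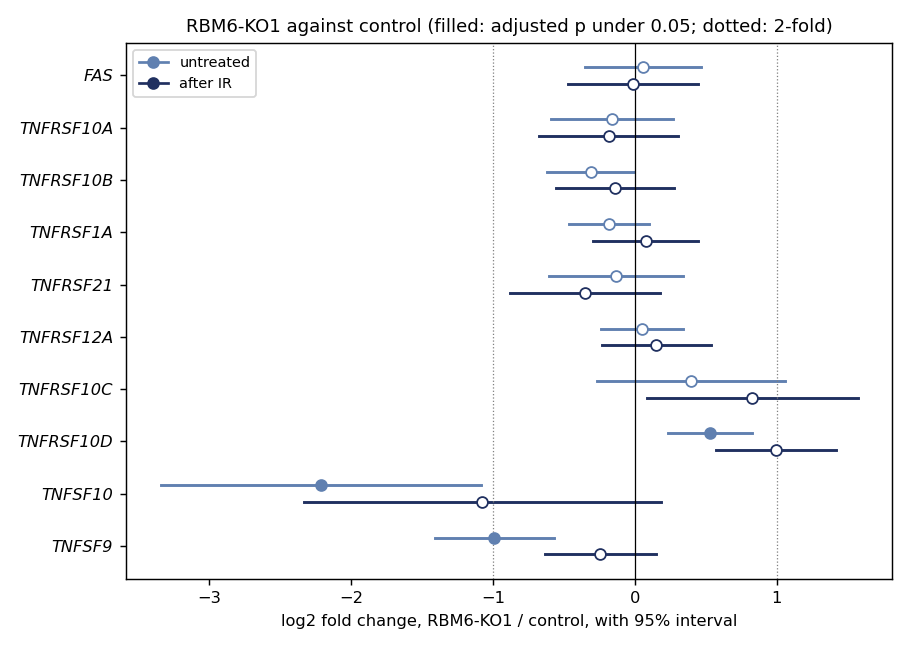
Log2 fold change of RBM6-KO1 against control cells (horizontal axis) for each of the 10 genes, untreated (light blue) and after IR (dark blue), as points with 95% intervals from edgeR, filled where the adjusted p was under 0.05, with dotted lines at 2-fold. TNFRSF10D, TNFSF10 and TNFSF9 were filled before IR and no gene was filled after it, although the interval of TNFRSF10D after IR lies above 0.

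The 4 TRAIL receptor genes lie next to each other on chromosome 8, and their mRNAs were set against each other within each library, per kb of canonical transcript. TNFRSF10B made up 55.7% to 56.6% of their summed level in untreated control cells, 62.4% to 62.8% in irradiated control cells, 42.5% to 46.2% in untreated KO1 cells and 46.4% to 47.8% in irradiated KO1 cells. TNFRSF10D made up 28.9% to 30.9%, 25.6% to 27.4%, 42.0% to 42.7% and 43.2% to 45.2% of it in the same order. All 4 KO1 libraries thus held a larger share of this decoy and a smaller share of TNFRSF10B than any of the 4 control libraries, which was not tested. The shares are parts of a whole, so a larger share of TNFRSF10D by itself lowers that of TNFRSF10B. The level of TNFRSF10B was lower in both untreated KO1 libraries and overlapped between the genotypes after IR. TNFRSF10A took 6.79% to 13.6% and TNFRSF10C 0.767% to 2.73% over the 8 libraries. The shares are of mRNA and depend on the length taken for each transcript.

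**Figure D4:**
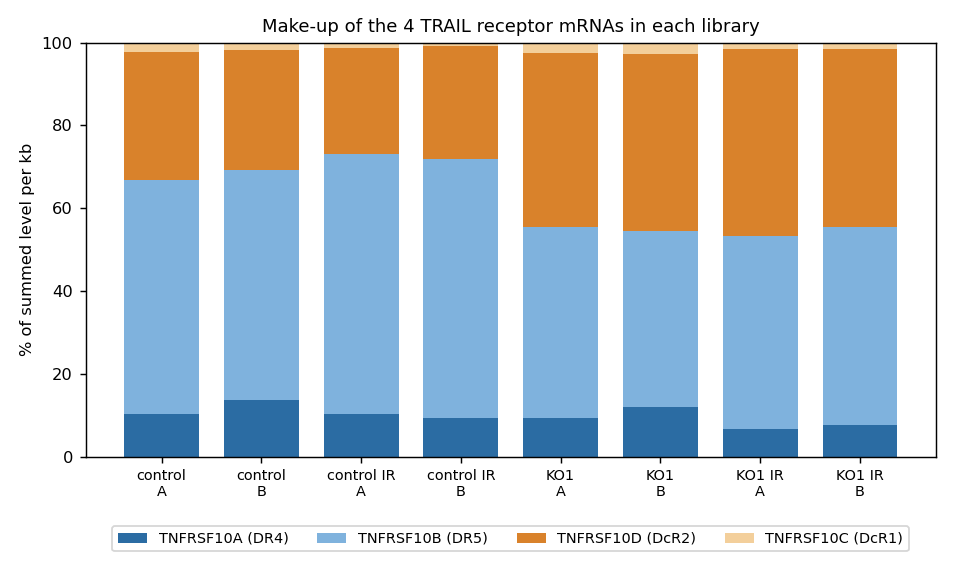
Share of each TRAIL receptor mRNA in the summed level of the 4, in percent per kb of canonical transcript (vertical axis from 0 to 100), for each of the 8 libraries. The orange part, TNFRSF10D, was at least 42.0% in each of the 4 KO1 libraries and at most 30.9% in each of the 4 control libraries.

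The rest of the TNF family and the proteins that act after the receptors were described from 2 lists. Of 37 other ligands and receptors, 18 had enough counts to be tested for IR in control cells, of which 2 were called higher and 1 lower (beside 1.68% and 1.91% of all genes), with a median of 0.35. EDA2R, a receptor for a form of ectodysplasin and a known p53 target, rose by 1.30 in control cells (edgeR adjusted p = 0.0121) and by 1.11 in KO1 cells (edgeR adjusted p = 0.0229). TNFRSF14, the receptor for the ligand LIGHT, rose by 2.50 in control cells (edgeR adjusted p = 0.0221) and had 1.88 in KO1 cells (edgeR adjusted p = 0.074). Its counts were low, 5 and 10 in untreated and 52 and 53 in irradiated control libraries, the latter at 3.37 and 1.71 CPM. TNFRSF25 (DR3), itself a death-domain receptor, fell by 1.35 in control (edgeR adjusted p = 0.00474) and by 1.30 in KO1 cells (edgeR adjusted p = 0.0166), from 51.6 and 62.5 to 22.3 and 22.7 CPM and from 45.7 and 40.8 to 21.0 and 14.5 CPM, so it moved opposite to FAS and TNFRSF10B. In KO1 cells 16 were tested. EDA2R and CD70 were the 2 called higher and TNFRSF25 the 1 called lower (beside 1.13% and 1.97% of all genes), with a median of 0.43. Between the genotypes 1 of 16 was called, CD70, lower in untreated KO1 cells, and 0 of 17 after IR, where 2 (11.8%, beside 11.1% of all genes) had an unadjusted p under 0.05 in edgeR. The untreated share called lower over all genes was 1.97%.

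Of 26 death receptor signalling genes, 25 were tested and none was called at 2-fold after IR in either genotype. Over all genes that call was met by 1.68% higher and 1.91% lower in control cells, and by 1.13% and 1.97% in KO1 cells. With shares that low, none among 25 genes says little about the list. In edgeR 4 of them in control and 6 in KO1 cells had an unadjusted p under 0.05 (16% and 24%, below the 25.4% and 29.6% of all genes), and the medians were -0.08 and 0.08. By adjusted p, 1 rose in control and 1 fell in KO1 cells, beside 2.81% of all genes higher and 3.23% lower. CASP8, the caspase activated at the receptors, rose by 0.86 in control cells (edgeR adjusted p = 0.0338), from 22.2 and 19.9 to 35.2 and 41.8 CPM, and in KO1 cells its 0.48 did not pass (edgeR adjusted p = 0.109). BIRC3, an inhibitor of apoptosis that acts at TNFR1, fell by 0.69 in KO1 cells (edgeR adjusted p = 0.0451). In untreated KO1 against control cells 3 of 25 rose by adjusted p, beside 2.38% of all genes, namely the adaptor TRAF1 by 1.5 (edgeR adjusted p = 0.0234), TNFAIP3 (A20), which restrains NF-kB, by 0.69 (edgeR adjusted p = 0.0305) and BIRC3 by 0.56 (edgeR adjusted p = 0.0466). All 3 are known NF-kB target genes, but they were picked because they passed, and NF-kB activity was not tested. TRAF1 alone passed 2-fold (beside 1.16% of all genes called higher), from 0.921 and 1.45 CPM in control to 3.88 and 2.93 CPM in KO1 cells, and the call was absent in DESeq2 and without KO1 replicate A. RIPK3, the kinase of necroptosis, had no count in any library.

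TNFSF9 lies on chromosome 19 near the genes of the ligands CD70 (6583183 to 6604103) and TNFSF14 (6661253 to 6670588), and these were set beside it after their values had been seen. CD70, the ligand of CD27 on T cells, had 68.4 and 90.8 CPM in untreated and 145 and 122 CPM in irradiated control cells, and 28.4 and 34.4 before and 90.4 and 76.4 after IR in KO1 cells. It rose with IR by 0.74 in control (edgeR adjusted p = 0.0407) and by 1.40 in KO1 cells (edgeR adjusted p = 0.00662), and was lower in untreated KO1 cells by -1.36 (edgeR adjusted p = 8.15e-05), the direction of TNFSF9 in each comparison. Its difference in IR response was 0.67 (95% interval 0.10 to 1.23, edgeR unadjusted p = 0.0249, adjusted p = 1). TNFSF14, which encodes LIGHT, had 1.70 to 2.95 CPM in untreated and 3.82 to 6.41 CPM in irradiated libraries, and its IR changes of 0.96 (edgeR adjusted p = 0.0876) and 1.10 (edgeR adjusted p = 0.0712) did not pass.

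**Figure D5:**
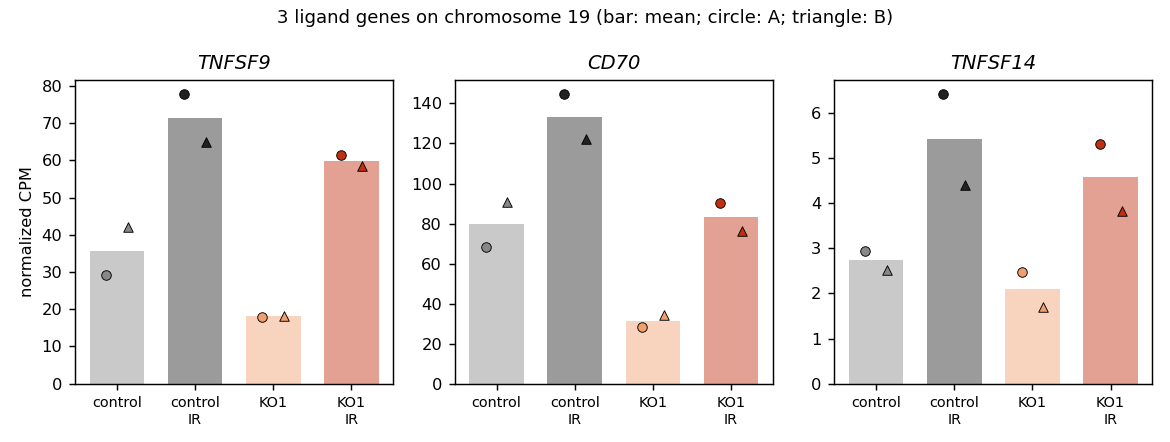
Normalized CPM (vertical axes, linear, starting at 0) of the chromosome 19 ligand genes TNFSF9, CD70 and TNFSF14 in the 8 libraries, with bars for the mean of 2 libraries, circles for replicate A and triangles for replicate B. In each gene the irradiated libraries of a genotype lie above its untreated ones, and TNFSF9 and CD70 were lowest in untreated KO1 cells.

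The genes whose levels over the 8 libraries were most like that of FAS were HMGXB3 (Pearson r = 0.995, Spearman rho = 0.976), CPE (0.995 and 0.952) and SPATA18 (0.992 and 0.952), with 250 of 16539 genes above 0.95 in r. For TNFSF9 they were PSAP (r = 0.984, rho = 0.857), NOB1 (0.981 and 0.905) and NONO (0.977 and 0.905), with 49 genes above 0.95. The 8 libraries fall into irradiated and untreated ones, so these values describe the order of the groups and carry no test.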

How the data were processed

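RNA of MCF10A-Hras control and knockout cells, taken untreated and 12 h after 5 Gy, was sequenced as TruSeq mRNA libraries with 2 replicates per group, given as biological replicates. The authors aligned the reads to hg38, their processing notes name STAR and DESeq2, and they deposited whole-number counts per Ensembl gene for the 8 libraries without normalization. The counting tool, annotation version and strandedness are not given in the sources used here. Every column was used. Symbols, positions and lengths came from GENCODE v44 (57392 of 58233 identifiers found, 841 not), and start regions from RefSeq.

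The fits used edgeR 4.0.16 and limma 3.58.1 under R 4.3.3, with TMM, filterByExpr, the quasi-likelihood test, two-sided, each comparison on its own libraries, and the interaction on all 8. Benjamini-Hochberg adjustment ran over all genes tested, no permutation of 2 against 2 libraries could go below p = 0.333, a call needed an adjusted p under 0.05 and at least 2-fold, and "rose" or "fell" needed the adjusted p. The standard error was the log2 fold change over the square root of F, and 95% intervals used the t distribution. Levels are CPM with TMM factors over all 8 libraries, which held 15355281 to 29832009 counts, and 3 counts was taken as the floor, for counting error only. Named were the 10 members, called genes of the lists (at most 6 per list and comparison), CDKN1A, MDM2, GDF15, RBM6, and the 3 genes most correlated with FAS and with TNFSF9. CASP8, BIRC3, TNFAIP3, TNFSF14, FASLG, TNF, RIPK3, CD14, ITGAM and the epithelial, fibroblast and endothelial markers were named after their values were seen. The members and lists were chosen with earlier results of these data known.

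Alternatives were DESeq2 size factors, the upper quartile, DESeq2 1.42.0, no filter, a minimum of 10 counts per library, no fold threshold, a replicate block, all 8 libraries in 1 fit, each library left out, and other lengths for the order of levels, of which the canonical transcript was chosen after seeing the data. The tests were also run on simulated counts, with means and dispersions taken from these same libraries.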

Additional observations from a re-analysis of the deposited data

How the results depend on the processing

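Of 615 member values under the alternatives, 559 kept their direction and side of the call, 25 gained and 10 lost a call, and 21 changed sign, each time when 1 library was left out and never for a change that had passed. With 1 library left out, the lone library is assumed to vary like the others. The ranges then crossed 0 for the IR change in control cells of TNFRSF10A (-0.047 to 0.56) and TNFRSF1A (-0.21 to 0.055) and in KO1 cells of TNFRSF10A (-0.048 to 0.41). They did so for the untreated genotype difference of FAS (-0.10 to 0.19), TNFRSF10A (-0.42 to 0.18) and TNFRSF12A (-0.033 to 0.13), for that after IR of FAS (-0.18 to 0.16), TNFRSF1A (-0.069 to 0.21), TNFRSF10A (-0.43 to 0.019) and TNFRSF10B (-0.32 to 0.013), and for the interaction of TNFRSF10A (-0.38 to 0.21), FAS (-0.25 to 0.12), TNFRSF12A (-0.024 to 0.22) and TNFRSF10B (-0.031 to 0.31).

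For IR in control cells the 1 member called became 0 with the upper quartile, 3 with DESeq2 or no filter, 4 by adjusted p alone and 0 to 2 with a library left out. The other TNF genes went from 3 to 5 with no filter, and the signalling genes from 0 to 1 by adjusted p alone. In KO1 cells the 1 member called became 4 by adjusted p alone and 1 to 2 with a library left out, the 3 other TNF genes became 6 with no filter and 2 to 6 with a library left out, and the signalling genes went from 0 to 1 by adjusted p alone. Between untreated genotypes the 1 member called became 0 with DESeq2, with at least 10 counts (TNFSF10 is then not tested) and with all 8 libraries, 3 by adjusted p alone and 0 to 1 with a library left out, and the 1 signalling gene became 0 with DESeq2, 2 with no filter or at least 10 counts, 3 by adjusted p alone and 0 to 1 with a library left out. After IR the members went from 0 to 1, TNFRSF10D, with DESeq2 size factors, DESeq2 or no filter and 0 to 1 with a library left out, the other TNF genes from 0 to 1 with DESeq2 size factors, no filter or all 8 libraries and 0 to 1 with a library left out, and the signalling genes from 0 to 1 with no filter or all 8 libraries and 0 to 1 with a library left out. In untreated control cells the rank of FAS by level was 9 per kb of all exons and 7 per kb of canonical transcript or without length. The cause of these moves was not tested.

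The correlations between the deviations of same-lettered libraries ran from -0.28 to 0.35 over the 6 pairs of groups. The highest, 0.35, was between irradiated control and irradiated KO1 cells, and whether libraries of the same letter belong together was not tested. In that comparison, genes at an unadjusted p under 0.05 in edgeR went from 1731 to 4561 with a replicate block. With a replicate block, 2 members were called for IR in control cells, and after IR 1 member, 1 other TNF gene and 1 signalling gene were called between genotypes, where the count over all genes went from 55 higher and 127 lower to 189 and 352. For IR in control cells the 259 genes called higher and 294 lower became 272 and 446 with the upper quartile and 283 and 331 with DESeq2 size factors, which change only the scaling, and 253 and 172 with DESeq2, which also changes the test and the filter. Depth limits TNFSF10 and TNFRSF10C, at 5 to 33 and 34 to 68 counts a library.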
